A study of Mus musculus with 30 samples.

Results

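Adenylyl cyclases are the membrane enzymes that make cyclic AMP, and 8 genes of the family, Adcy1, Adcy2, Adcy3, Adcy5, Adcy6, Adcy7, Adcy8 and Adcy9, were followed in ribosome-associated RNA from the nucleus accumbens of female mice. They are 8 of the 55335 genes in the deposited count table, and all 8 passed the filter on low counts. The genes were taken by symbol, and the family was selected on the measured levels of Adcy2, which was higher in D1 than in D2 libraries of unstressed mice. The D1 against D2 values in Control libraries are therefore given as a description, with no test, and the tests between classes use Resilient and Susceptible libraries only.

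RNA came from mice that carry an HA-tagged ribosomal protein (RiboTag, RT in the labels), from which tagged polyribosomes were pulled down with an antibody. In D1-Cre-RT mice the Cre driver tags medium spiny neurons that express the D1 dopamine receptor, and these libraries are called D1. In A2A-Cre-RT mice it tags medium spiny neurons that express the adenosine A2A and D2 dopamine receptors, and these libraries are called D2. Mice of each genotype were Control or went through chronic witness defeat stress (CWDS), after which their social interaction scores placed them as Resilient or Susceptible, and tissue was taken 24 h after that interaction test. Each of the 6 groups holds 5 libraries, 30 in all, and each library pools 4 female mice, so an animal's own level is averaged and the Cre driver alone defines the class. No age is given in the labels.

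All adenylyl cyclases of this family turn ATP into cyclic AMP, which activates protein kinase A and other effectors. Medium spiny neurons raise cyclic AMP through D1 or A2A receptors coupled to the G protein Golf and lower it through D2 receptors coupled to Gi and Go, and Adcy5 is known as the main cyclase of the striatum. The members differ in how they are controlled: Adcy2, like Adcy4 and Adcy7, is stimulated by G protein beta-gamma subunits when Gs or Golf is active, Adcy1 and Adcy8 are stimulated by calcium and calmodulin, and Adcy5 and Adcy6 are inhibited by calcium.

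Adcy2 lies at chr13:68620043-68999541 on the minus strand of GRCm38, a gene span of 379 kb with 4211 exonic bases. Of these bases, 189 are shared with Gm35161 on the opposite strand, which had between 0 and 1.51 CPM in any library. Adcy1 lies at chr11:7063489-7178506, Adcy3 at chr12:4133103-4213525 and Adcy5 at chr16:35154877-35305738, all on the plus strand. Adcy6 lies at chr15:98589973-98610076, Adcy8 at chr15:64697084-64922296 and Adcy9 at chr16:4287529-4420498 on the minus strand, and Adcy7 at chr8:88272403-88329962 on the plus strand. Adcy3 shares 22.1% of its exonic bases with Cenpo and Adcy6 shares 8.92% with Gm29331, both on opposite strands. The strand setting of the counting is not given in the sources used here, so reads in those stretches cannot be assigned to a strand.

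With all libraries edgeR called Adcy1 higher in D1 in Resilient only, and 8 of 10 fits that left out a Resilient library lost that call. The promoters of Adcy1, of the D1-enriched Adcy2 and of Adcy5, which was not called, are shown to be read side by side. Each is the 250 bases before the RefSeq start on GRCm38.p6, in the direction of the gene, at chr13:68999542-68999791 for Adcy2, chr11:7063183-7063432 for Adcy1 and chr16:35154614-35154863 for Adcy5. Capitals mark the GC box, GGGCGG on either strand.

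Adcy2: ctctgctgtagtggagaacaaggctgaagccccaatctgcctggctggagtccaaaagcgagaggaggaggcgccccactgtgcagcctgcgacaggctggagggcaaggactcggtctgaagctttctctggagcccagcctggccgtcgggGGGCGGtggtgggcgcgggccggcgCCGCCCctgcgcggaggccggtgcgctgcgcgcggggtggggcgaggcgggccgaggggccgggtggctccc

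Adcy1: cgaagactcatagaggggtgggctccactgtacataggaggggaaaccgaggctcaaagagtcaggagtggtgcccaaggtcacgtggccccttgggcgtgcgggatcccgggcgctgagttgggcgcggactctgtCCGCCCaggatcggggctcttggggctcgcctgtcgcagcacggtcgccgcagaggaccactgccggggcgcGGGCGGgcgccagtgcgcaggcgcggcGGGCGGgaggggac

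Adcy5: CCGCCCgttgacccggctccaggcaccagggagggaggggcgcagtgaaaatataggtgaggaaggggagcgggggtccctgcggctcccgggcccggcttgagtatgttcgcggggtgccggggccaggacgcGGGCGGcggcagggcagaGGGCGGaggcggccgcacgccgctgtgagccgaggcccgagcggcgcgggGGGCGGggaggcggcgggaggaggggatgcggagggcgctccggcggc

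Adcy2 held 2 GC boxes, Adcy1 held 3 and Adcy5 held 4 in these windows, and 32.7% of all 32851 promoters of the same length held at least 1. The GC content was 73.2% for Adcy2, 71.2% for Adcy1 and 78.0% for Adcy5, against a median of 52.4% over all promoters. None of the 3 held the full cAMP response element TGACGTCA on either strand, which 1.55% of all promoters hold. The shorter TGACG, which the full element contains, was in none of the 3 and in 17.8% of all promoters. Of the 8 cyclases, 6 had a promoter entry, and Adcy6 and Adcy8 had none. These matches describe letters in a window and not binding.

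The labels were checked first. Drd1 was 377 to 616 CPM (counts scaled to a library size of 1000000 after TMM scaling) in the 15 D1 libraries and 50.3 to 414 CPM in the 15 D2 libraries, and Drd2 was 49.8 to 143 CPM in D1 and 205 to 570 CPM in D2. Library totals ran from 28996168 to 65882152 counts in genes. The libraries that stand apart are 3. D2 Susceptible replicates 1 and 2 hold the fewest genes with a count, 15822 and 16525 where the highest library holds 22375, and in D1 Susceptible replicate 1 41.2% of reads fell outside genes, against 5.20% at the lowest. In that D1 library 3 counts equal 0.304 CPM on the TMM-scaled size, against 0.103 CPM on its counts in genes, so TMM scaling raised its CPM. In D2 Resilient replicate 5 Drd1 was 414 CPM, within the D1 range, and Drd2 was 205 CPM, above every D1 library.

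Adcy2 separated the classes in every stress group. In D1 Control libraries it measured 62.9, 63.2, 71.0, 63.5 and 70.7 CPM, and in D2 Control libraries 25.5, 22.4, 23.4, 25.0 and 36.8 CPM. Every D1 Control library was above every D2 Control library. In D1 Resilient libraries Adcy2 measured 52.2, 61.8, 61.9, 58.6 and 44.9 CPM, and in D2 Resilient libraries 19.8, 26.4, 27.8, 26.3 and 38.8 CPM. The groups did not overlap here either, and the highest D2 value was in replicate 5. In D1 Susceptible libraries it measured 50.4, 60.3, 59.5, 60.0 and 49.9 CPM, and in D2 Susceptible libraries 13.2, 18.4, 19.1, 22.04 and 18.5 CPM. The D2 Susceptible libraries held the lowest Adcy2 of the 6 groups by mean, and the lowest single value, 13.2 CPM, was in replicate 1, which stands apart.

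**Figure D1:**
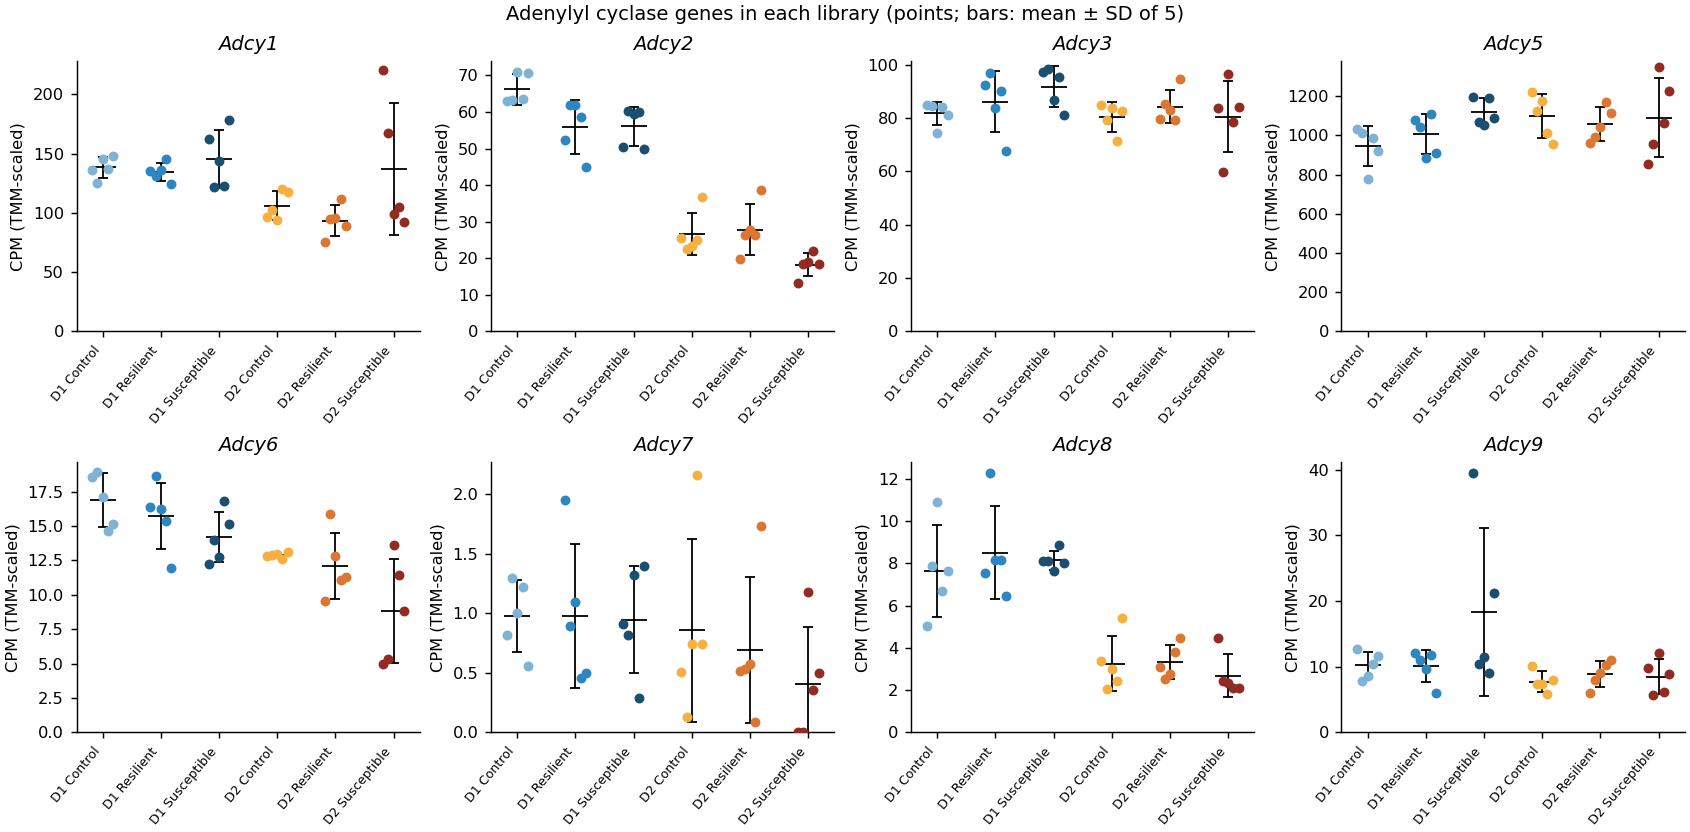
CPM of the 8 cyclase genes in each of the 30 libraries (points), with the mean and SD of the 5 libraries of a group (bars), on a separate linear axis from 0 for each gene. Adcy2 and Adcy8 sit higher in the 3 D1 groups, Adcy5 and Adcy3 lie at similar heights in all 6, and single libraries stand out for Adcy1 in D2 Susceptible (220.8 CPM) and Adcy9 in D1 Susceptible (39.5 CPM).

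Adcy2 was higher in D1 than in D2 ribosomes in both stressed groups, which the choice of the gene did not use. In Resilient libraries the D1 mean was 55.9 ± 7.29 CPM and the D2 mean 27.8 ± 6.87 CPM (SD, n = 5 each), which differ on the log2 scale by 1.01 (SE 0.144, 2.01-fold, edgeR quasi-likelihood test, adjusted p = 1.48e-05). In Susceptible libraries the means were 56.0 ± 5.35 CPM for D1 and 18.2 ± 3.18 CPM for D2, which differ by 1.62 (SE 0.147, 3.07-fold, adjusted p = 1.59e-08). In Control libraries, which picked the gene, the means were 66.3 ± 4.23 and 26.6 ± 5.83 CPM and the log2 difference was 1.31. Setting aside D2 Susceptible replicates 1 and 2 gave 1.52 (adjusted p = 4.50e-07) in Susceptible, and leaving out D2 Resilient replicate 5 gave 1.18 (adjusted p = 6.43e-07) in Resilient.

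Adcy8, a cyclase that calcium and calmodulin stimulate, was the other member with a large difference between the classes, at a level far below that of Adcy2. It measured 7.54, 12.3, 8.15, 8.17 and 6.45 CPM in D1 Resilient and 3.10, 2.51, 2.76, 3.78 and 4.48 CPM in D2 Resilient libraries. In Susceptible libraries it measured 8.12, 8.13, 7.62, 8.87 and 8.03 CPM in D1 and 4.47, 2.41, 2.35, 2.08 and 2.12 CPM in D2. The D1 and D2 libraries did not overlap in either stressed group. The log2 difference was 1.35 (SE 0.252, adjusted p = 0.000427) in Resilient and 1.61 (SE 0.255, adjusted p = 4.36e-05) in Susceptible libraries by edgeR, and without D2 Resilient replicate 5 it was 1.503 (adjusted p = 0.000248) in Resilient. In Control libraries the values ran from 5.02 to 10.9 CPM for D1 and from 2.06 to 5.41 CPM for D2. These Control groups overlapped, with a log2 difference of 1.23.

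Adcy1, the other member known as calcium-stimulated, was moderately higher in D1 in Resilient libraries. It measured 124.6 to 145.3 CPM in the 5 D1 Resilient libraries and 75.7 to 111.6 CPM in the 5 D2 Resilient libraries, with no overlap. The log2 difference was 0.53 (SE 0.163, adjusted p = 0.0459), close to the threshold of 0.05, and the call was lost in 8 of 10 fits that left out a Resilient library (adjusted p up to 0.155), D2 Resilient replicate 5 among them (0.53, adjusted p = 0.0709). In Susceptible libraries Adcy1 measured 162.2, 121.9, 143.5, 122.8 and 177.9 CPM in D1 and 220.8, 167.6, 99.0, 105.0 and 92.0 CPM in D2. The first pair of D2 values are replicates 1 and 2, which stand apart, and the other 3 D2 libraries lie below all 5 D1 libraries. Over all 10 the log2 difference was 0.09 (SE 0.163, adjusted p = 0.730), and with those 2 libraries set aside it was 0.58 (adjusted p = 0.000580).

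Adcy3 measured 59.8 to 98.5 CPM over all 30 libraries, and its log2 difference between D1 and D2 was 0.03 (SE 0.0988, adjusted p = 0.972) in Resilient and 0.19 (SE 0.0990, adjusted p = 0.167) in Susceptible libraries. Adcy3 passed the test in Susceptible (0.28, adjusted p = 0.0316) when D2 Susceptible replicate 3 was left out.

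Adcy5 was the most abundant member everywhere, and no test called its level different between the classes. Its mean was 1006 ± 102 CPM in D1 Resilient and 1057 ± 87.0 CPM in D2 Resilient libraries. In Susceptible libraries the D1 mean was 1121 ± 70.4 CPM and the D2 mean 1091 ± 201 CPM. The log2 differences were -0.07 (SE 0.104, adjusted p = 0.914) and 0.04 (SE 0.104, adjusted p = 0.825), and the latter was -0.09 (adjusted p = 0.649) with D2 Susceptible replicates 1 and 2 set aside. In Control libraries, which were not tested, the Adcy5 log2 difference was -0.21 (SE 0.104). Adcy6, which shares with Adcy5 the inhibition by calcium, measured 12.3, 14.0, 12.8, 16.8 and 15.1 CPM in D1 Susceptible and 4.96, 5.32, 13.6, 11.4 and 8.85 CPM in D2 Susceptible libraries. The lowest Adcy6 values are those of D2 replicates 1 and 2. Adcy6 passed the test in Susceptible libraries (log2 difference 0.69, SE 0.193, adjusted p = 0.0104), and with those 2 libraries set aside it was 0.36 (adjusted p = 0.141). In Resilient libraries its log2 difference was 0.38 (SE 0.191, adjusted p = 0.363).

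Adcy9, a widely expressed cyclase, passed the test in Susceptible libraries, where it varied widely among the D1 libraries. It measured 39.5, 10.4, 11.5, 9.05 and 21.2 CPM in D1 Susceptible and 9.77, 5.65, 12.02, 6.09 and 8.93 CPM in D2 Susceptible libraries. The groups overlapped, and the highest value was in D1 replicate 1, which stands apart. The log2 difference was 1.09 (SE 0.297, adjusted p = 0.00871), and without D1 Susceptible replicate 1 it was 0.62 (adjusted p = 0.0734). In Resilient libraries it was 0.19 (SE 0.293, adjusted p = 0.920). Adcy7, in the same regulatory group as Adcy2, was near the limit of detection, at no more than 2.16 CPM in any library. In D2 Susceptible replicates 1 and 2 it had 0 counts, which allows up to 0.0644 and 0.0543 CPM. Its log2 difference was 0.51 (SE 0.824) in Resilient and 1.22 (SE 0.843) in Susceptible libraries, with adjusted p of 0.927 and 0.310. It was 1.21 (adjusted p = 0.617) in Resilient without D2 Resilient replicate 5, and 0.52 (adjusted p = 0.722) in Susceptible with D2 replicates 1 and 2 set aside.

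Counted together, 3 of the 8 cyclases were higher in D1 in Resilient libraries (Adcy1, Adcy2 and Adcy8) and 0 were lower, where 2.75% of all 19368 genes tested were called higher in D1. In Susceptible libraries 4 of 8 were higher (Adcy2, Adcy6, Adcy8 and Adcy9) and 0 lower, where 10.5% of all genes were called higher. With D2 Susceptible replicates 1 and 2 set aside 3 were called higher there, Adcy1, Adcy2 and Adcy8, beside 5.51% of all genes. When only the 2 Susceptible groups were fitted, Adcy6 (adjusted p = 0.149) and Adcy9 (adjusted p = 0.117) were not called. The median log2 difference of the 8 was 0.44 in Resilient and 0.89 in Susceptible, beside -0.00346 and 0.0167 over all genes tested. By ranges alone, every D1 library was above every D2 library for 3 of 8 in Resilient, where 4.69% of all genes did so, and for 2 of 8 in Susceptible, where 4.8% did so. In Control libraries, which chose the family, 3 of 8 did so (Adcy1, Adcy2 and Adcy6) beside 5.62% of all genes, and 3.51% of all genes were called higher. The counts and medians of the 8 include Adcy2, whose difference in Control libraries chose the family, so they are no test of the family. Adcy1 lost its Resilient call in 8 of 10 fits that left out a Resilient library.

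**Figure D2:**
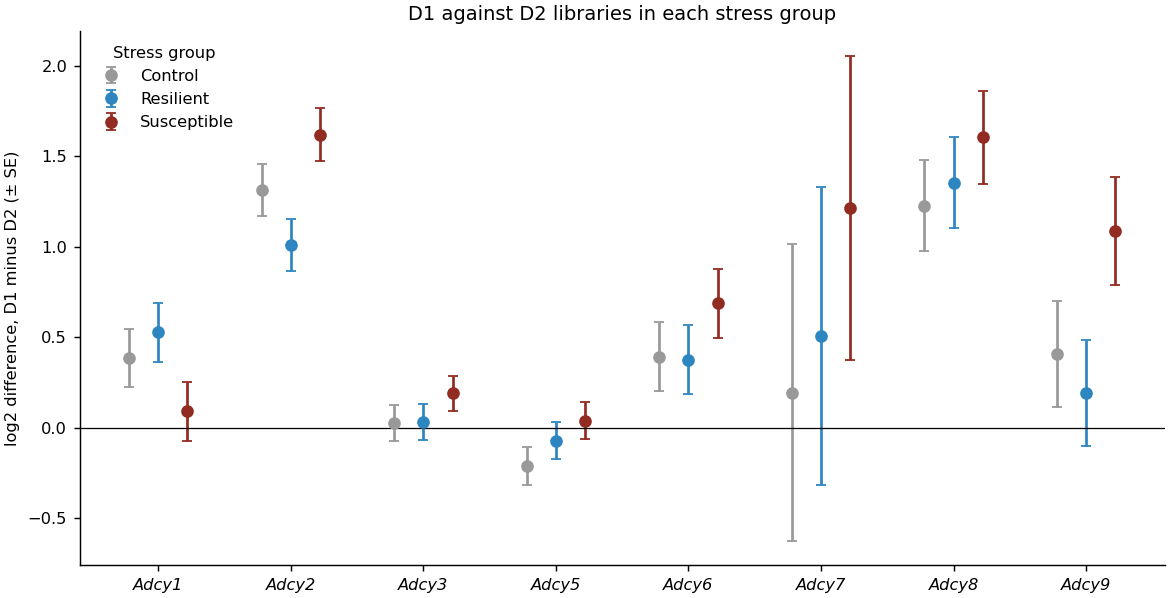
Log2 difference between D1 and D2 libraries for each cyclase gene (points, with SE) in Control, Resilient and Susceptible libraries. Adcy2 (1.31, 1.01 and 1.62) and Adcy8 (1.23, 1.35 and 1.61) lie above the other members in Control and Resilient. Adcy3 (0.03, 0.03 and 0.19) and Adcy5 (-0.21, -0.07 and 0.04) lie nearer 0 than Adcy2 and Adcy8 in all 3 groups, and Adcy7 has the widest error.

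Beside these differences the libraries of the classes differed in markers of other cells, and the part of these in the cyclase differences was not tested. The 5 interneuron markers summed to 252 to 422 CPM in D1 libraries and 61.4 to 248 CPM in D2 libraries. The 4 glutamatergic neuron markers summed to 427 to 813 CPM in D1 and 114 to 447 CPM in D2 libraries. Markers of oligodendrocytes (5 genes) summed to 348 to 898 CPM in D1 and 397 to 1838 CPM in D2, those of astrocytes (5 genes) to 28.3 to 136 CPM and 54.2 to 184 CPM, and those of microglia (5 genes) to 7.21 to 32.8 CPM and 11.4 to 38.3 CPM. No marker was at 0 in all libraries of a group. In pulled-down RNA from pooled tissue, more cells of a type and more RNA per cell cannot be told apart.

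The D2 libraries also differed in their content of D1 markers. The 6 D1 markers (Drd1, Pdyn, Tac1, Isl1, Sfxn1 and Eya1) summed to 1695 to 2552 CPM in the D1 libraries and to 269 to 1816 CPM in the D2 libraries. The highest D2 libraries in that sum were Resilient replicate 5 (1816 CPM) and Control replicate 5 (1215 CPM). The same libraries held the highest Adcy2 of the D2 libraries, 38.8 and 36.8 CPM. The order did not go on below them: Control replicate 3 and Susceptible replicate 1 were next in the sum (699.9 and 635 CPM), with Adcy2 at 23.4 CPM and at 13.2 CPM, the lowest of all 30 libraries. The 5 D2 markers (Drd2, Adora2a, Penk, Gpr6 and Sp9) summed to 1120 to 2771 CPM in D1 and 4867 to 12799 CPM in D2 libraries. How far reads from the other class set the Adcy2 level of D2 libraries was not tested.

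**Figure D3:**
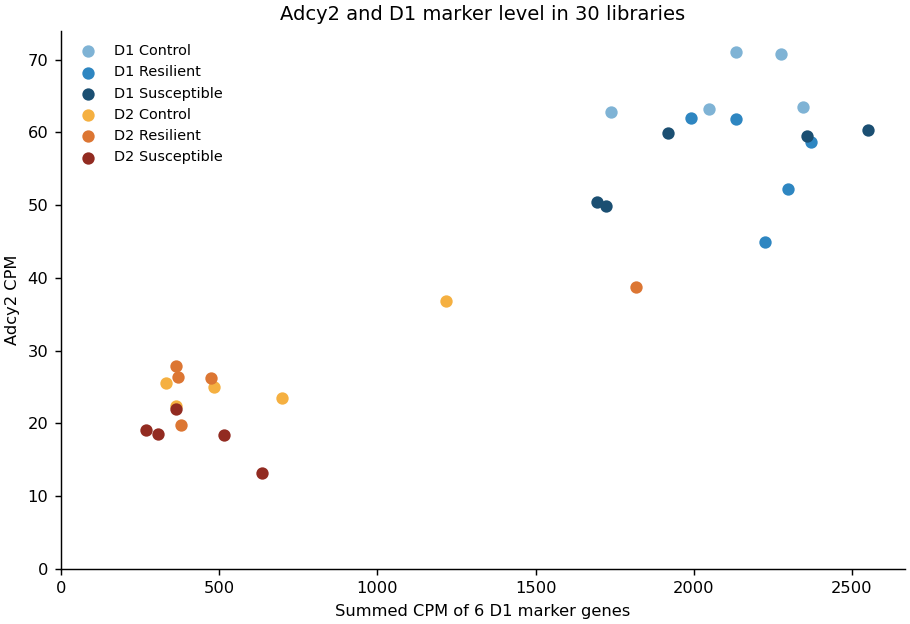
Adcy2 CPM against the summed CPM of 6 D1 marker genes in each of the 30 libraries, coloured by group. The D1 libraries lie at the upper right (44.9 to 71.0 CPM of Adcy2), most D2 libraries at the lower left, and D2 Control replicate 5 and D2 Resilient replicate 5 between them.

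Within the family, reads were set on a scale per kilobase of exon so that genes could be compared with each other. Adcy5 held 132 to 156 CPM per kb as group means, far above every other member. The scale uses all exonic bases, among them the 22.1% that Adcy3 shares with Cenpo. How reads in those bases were counted is not given, so the order of Adcy2 and Adcy3 in D1 libraries is not settled. In D1 Control Adcy2 was next with 15.7 ± 1.00 CPM per kb, above Adcy3 (13.1 ± 0.694) and Adcy1 (11.1 ± 0.714). In D1 Resilient and D1 Susceptible libraries Adcy2, at 13.3 ± 1.73 and 13.3 ± 1.27 CPM per kb, came behind Adcy3, at 13.8 ± 1.84 and 14.7 ± 1.22 CPM per kb, with overlapping ranges of mean ± SD. In D2 libraries Adcy2 was the fourth, at 6.32 ± 1.38, 6.60 ± 1.63 and 4.33 ± 0.756 CPM per kb in Control, Resilient and Susceptible, below Adcy3 and Adcy1. In D2 Resilient libraries Adcy1 (7.45 ± 1.03 CPM per kb) and Adcy2 lay within 1 SD of each other. Adcy6, Adcy9 and Adcy8 followed between 0.329 and 3.52 CPM per kb, and Adcy7 was lowest in all 6 groups, at 0.0602 to 0.145 CPM per kb.

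Across groups, the order of Adcy2 was D1 Control, then D1 Susceptible and D1 Resilient, which lay within 1 SD of each other, then D2 Resilient and D2 Control, also within 1 SD of each other, and D2 Susceptible last. Adcy8 was ordered the same way by class, with its 3 D1 groups at 7.64 ± 2.16 to 8.51 ± 2.21 CPM and its 3 D2 groups at 2.69 ± 1.01 to 3.33 ± 0.802 CPM. Within each class the ranges of mean ± SD of Adcy8 overlapped. The summed level of the 8 genes had group means from 1269 to 1456 CPM.

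Adcy2 made up a larger part of the family's reads in D1 than in D2 libraries. In Resilient libraries it took 4.26 ± 0.573% of the reads of the 8 genes in D1 and 2.15 ± 0.435% in D2, a difference of 2.11 percentage points. In Susceptible libraries the shares were 3.87 ± 0.513% and 1.36 ± 0.246%, a difference of 2.51 percentage points. The D1 and D2 shares did not overlap in either group. The exact two-sided permutation test gave p = 0.00794 for each, the smallest value that 5 against 5 libraries allow, and 0.00794 after adjustment over the 2 tests. Per kilobase of exon the differences were 3.59 and 4.22 percentage points. The share depends on the other 7 genes as well, mostly on Adcy5. It uses the same Adcy2 reads as the edgeR test above, so it is not independent of that result.

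**Figure D4:**
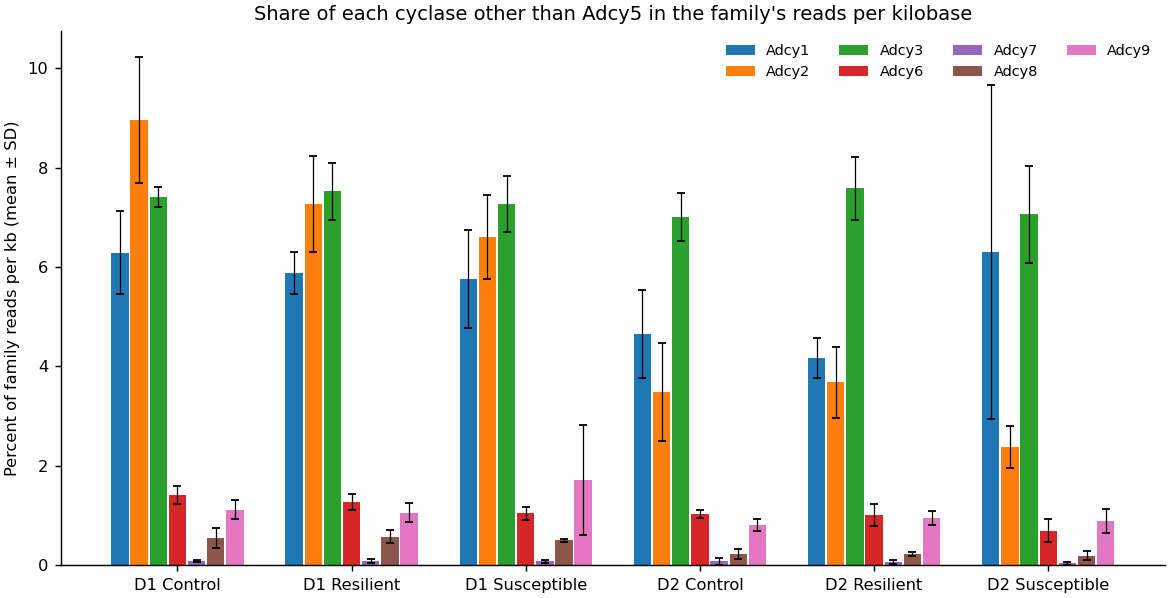
Share of each cyclase other than Adcy5 in the family's reads per kilobase of exon, as the mean and SD of the 5 libraries of each group, in percent. Adcy2 holds 8.96%, 7.27% and 6.60% in D1 Control, Resilient and Susceptible libraries and 3.47%, 3.67% and 2.38% in the D2 groups.

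Next, the 3 stress groups were compared within each class, which asks whether cyclase levels differ after witness stress. The comparisons of Adcy2 with Control hold the libraries that picked it and were not tested, which left 44 tests. By edgeR 0 of the 44 passed the threshold, and 8 had an unadjusted p under 0.05: 2 of 7 genes in D1 Susceptible against Control (2.4% of all genes), 1 of 8 in D1 Susceptible against Resilient (3.49%), 2 of 7 in D2 Susceptible against Control (15.7%) and 3 of 8 in D2 Susceptible against Resilient (19.1%). By adjusted p the background was 0% of all genes were called in each of the 3 comparisons in D1 libraries and in D2 Resilient against Control, 0.00516% in D2 Susceptible against Control and 0.0516% in D2 Susceptible against Resilient. DESeq2 called 2 cyclases (Adcy1 and Adcy2) in D2 Susceptible against Resilient, where it called 5.05% of all genes.

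Adcy2 came closest to the threshold. In D2 libraries its log2 change from Resilient to Susceptible was -0.61 (SE 0.144, unadjusted p = 0.000209, edgeR adjusted p = 0.0586), from a mean of 27.8 to 18.2 CPM. The ranges overlapped, as D2 Resilient replicate 1 (19.8 CPM) lay within the Susceptible range. Leaving out D2 Resilient replicate 1, or D2 Susceptible replicate 3, 4 or 5, gave adjusted p of 0.0374, 0.0156, 0.0323 and 0.0204. With D2 Susceptible replicates 1 and 2 set aside the change was -0.49 (adjusted p = 0.609), and without D2 Resilient replicate 5, the library with the most D1 marker reads among the D2 libraries, -0.46 (adjusted p = 0.158). The comparisons of Adcy2 with Control are given as values: -0.55 for D2 Susceptible, 0.06 for D2 Resilient (-0.09 without replicate 5), -0.24 for D1 Susceptible and -0.24 for D1 Resilient. All 5 D2 Susceptible libraries lay below all 5 D2 Control libraries, and all 10 stressed D1 libraries below all 5 D1 Control libraries. Of all genes, 1.31% had no overlap in either direction in D2 Susceptible against Control, 0.888% in D1 Susceptible against Control and 1.54% in D1 Resilient against Control. These ranges use the Control libraries that picked Adcy2, a pick that favours high D1 and low D2 Control values, so they are no test.

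The following changes of Adcy1, Adcy6 and Adcy9 shrank when libraries that stand apart were left out. Adcy1 in D2 Susceptible against Resilient had a log2 change of 0.55 (SE 0.163, adjusted p = 0.0838), which became 0.08 (adjusted p = 1) with D2 Susceptible replicates 1 and 2 set aside. Against Control its value went from 0.37 to -0.11. Leaving out D2 Susceptible replicate 3, 4 or 5 gave Adcy1 against Resilient adjusted p of 0.0166, 0.0450 and 0.0162. Adcy6 in D2 Susceptible against Control had -0.54 (SE 0.192, adjusted p = 0.194) and -0.20 (adjusted p = 1) with the same libraries set aside, and without D2 Susceptible replicate 3 it was -0.76 (adjusted p = 0.0368). The change of Adcy9 in D1 Susceptible against Control was 0.81 (SE 0.295, unadjusted p = 0.00980, adjusted p = 1), and without D1 Susceptible replicate 1 it was 0.35.

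Adcy5 was the only member other than Adcy2 whose groups did not overlap in a stress comparison. It measured 1033, 1011, 779, 989 and 921 CPM in D1 Control and 1199, 1070, 1052, 1194 and 1087 CPM in D1 Susceptible libraries. All 5 D1 Susceptible libraries were above all 5 D1 Control libraries, with a log2 change of 0.24 (SE 0.104, unadjusted p = 0.0259, adjusted p = 1). The highest of them, 1199 CPM, is D1 Susceptible replicate 1, which stands apart. Of all genes, 0.888% had no overlap in either direction in D1 Susceptible against Control. Adcy3, Adcy7 and Adcy8 had unadjusted p above 0.05 in all 6 comparisons.

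**Figure D5:**
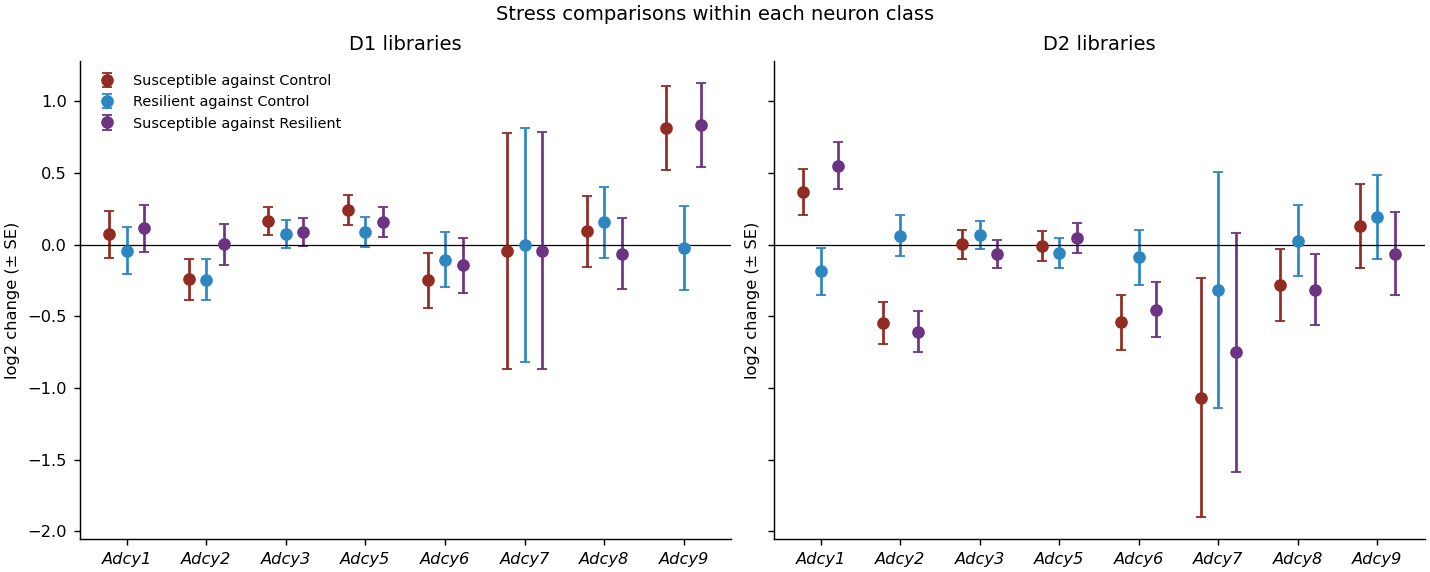
Log2 change of each cyclase gene (points, with SE) for the 3 stress comparisons in D1 libraries (left) and D2 libraries (right). None of the 44 changes tested passed the threshold by edgeR, and Adcy2, whose changes against Control are values only, in D2 Susceptible lies at -0.55 against Control and -0.61 against Resilient.

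The stress changes were then compared between the classes as an interaction. For Susceptible against Resilient 0 of 8 genes passed by edgeR, with 0% of all genes called and 2 of the 8 at an unadjusted p under 0.05, where 12.4% of all genes were. These were Adcy2, whose D1 change exceeded its D2 change by 0.61 (SE 0.203, unadjusted p = 0.00518, adjusted p = 0.266), and Adcy9 with 0.90 (SE 0.415, unadjusted p = 0.0392, adjusted p = 0.374), which was 0.43 (adjusted p = 0.650) without D1 Susceptible replicate 1. For Susceptible against Control and Resilient against Control 0 of the 7 genes other than Adcy2 passed, with 0% of all genes called and 0 of 7 at an unadjusted p under 0.05. The class difference of Adcy2 in Susceptible (1.62) and in Resilient (1.01) libraries was thus not shown to differ by this test.

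The 5 genes whose pattern over the 30 libraries was most like that of Adcy2 were Ube2ql1, Gnb4, Dner, Cnr1 and Parm1. Likeness was measured as the root-mean-square distance between log2 CPM centred on each gene's mean, and these genes lay at 0.181, 0.183, 0.190, 0.194 and 0.218, where the median of the 15157 genes compared was 0.807. Ube2ql1 encodes a ubiquitin-conjugating enzyme, Gnb4 a G protein beta subunit, Dner a Notch-related membrane protein and Cnr1 the cannabinoid receptor CB1, which is coupled to Gi and Go. Gnb4 measured 95.1 ± 8.31 CPM in D1 Resilient and 44.4 ± 18.8 CPM in D2 Resilient libraries. Cnr1 measured 119 ± 12.5 CPM and 54.7 ± 14.6 CPM in the same groups. Of the cyclases Adcy8, Adcy1 and Adcy5, Adcy8 was nearest to Adcy2 at 0.382, with Adcy1 at 0.689 and Adcy5 at 0.784. The distances of the other cyclases were not computed. The distances describe these libraries, which share the class contrast that chose Adcy2.

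The genes that act before and after adenylyl cyclase were counted over a list of 48, of which 46 were tested. Drd1, Drd2, Adora2a and Gpr6 on this list are also markers of the classes, known to differ between them. The counts include them and are no test of the pathway. In Resilient libraries 6 of 46 were higher and 6 lower in D1, beside 2.75% and 3.9% of all genes. In Susceptible libraries 12 of 46 were higher and 9 lower, beside 10.5% and 13.4% of all genes. With D2 Susceptible replicates 1 and 2 set aside, 15 of the 46 were called there in either direction, beside 10.4% of all genes. The median log2 difference of the list was 0.01 in Resilient and 0.03 in Susceptible libraries.

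Among receptors, those that define the classes differed in the directions of their labels. Adora2a, the A2A receptor that raises cyclic AMP through Golf, measured 167 ± 36.7 CPM in D1 and 988 ± 285 CPM in D2 Resilient libraries, a log2 difference of -2.57 (adjusted p = 3.33e-07), and -2.62 (adjusted p = 2.66e-07) in Susceptible. Drd2 differed by -2.35 and -2.27, and Gpr6, an orphan receptor that raises cyclic AMP, by -2.15 and -1.82. Drd1 was higher in D1 by 1.85 (SE 0.444, adjusted p = 0.00858) in Resilient and by 3.08 (SE 0.466, adjusted p = 4.97e-05) in Susceptible libraries. Without D2 Resilient replicate 5, which held 414 CPM of Drd1, the Resilient difference was 2.84 (adjusted p = 6.62e-07). Over all 10 Resilient libraries its adjusted p was 0.0939 when only the groups compared were fitted. Receptors called were 1 higher and 3 lower of 6 in Resilient libraries (2.75% and 3.9% of all genes). In Susceptible libraries 3 were higher and 3 lower of 6 (10.5% and 13.4% of all genes).

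Of the 15 G protein genes tested, 4 were higher and 1 lower in D1 in Resilient libraries (2.75% and 3.9% of all genes). In Susceptible libraries 4 were higher and 3 lower (10.5% and 13.4% of all genes). The ones that were higher in both include beta and gamma subunits, which are known to stimulate Adcy2 together with Gs or Golf. In Resilient the 4 were Gng2, Gnb4, Gng3 and Gnai1. Gnb1, Gnb2 and Gng7, with 1028069, 766773 and 1024135 counts over the 30 libraries, were not among them. Gnb4 and Gng2 had 107451 and 120710 counts. Gnb4 was higher by 1.10 (SE 0.184, adjusted p = 0.000132) in Resilient and 1.60 (SE 0.187, adjusted p = 7.81e-07) in Susceptible. Gng2, a gamma subunit, was higher by 1.16 (SE 0.190, adjusted p = 0.000106) and 1.13 (SE 0.191, adjusted p = 0.000101). Gng3, another gamma subunit, was higher by 0.39 in Resilient (adjusted p = 0.00140), and Gnai1, an inhibitory alpha subunit, by 0.54 (adjusted p = 0.00167) and 0.90 (adjusted p = 2.06e-06). Gnb5, a beta subunit that pairs with RGS proteins, was lower by -0.52 and -0.64 on the log2 scale (adjusted p = 1.91e-05 and 8.85e-07). Gnao1, the alpha subunit of Go, differed by -0.39 (adjusted p = 0.00223) in Susceptible and by -0.15 (adjusted p = 0.218) with D2 Susceptible replicates 1 and 2 set aside.

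Phosphodiesterases, which break down cyclic AMP or cyclic GMP, gave 1 higher and 1 lower of 12 in Resilient and 2 higher and 2 lower in Susceptible libraries. Of all genes, 2.75% were called higher and 3.9% lower in Resilient, and 10.5% and 13.4% in Susceptible libraries. Pde1a, which calcium and calmodulin activate, was higher in D1 by 0.69 (SE 0.166, adjusted p = 0.00686) and 1.21 (SE 0.168, adjusted p = 8.54e-06). Of the 8 protein kinase A genes, 0 were called in Resilient (3 at an unadjusted p under 0.05, as were 15.2% of all genes) and 3 higher and 1 lower in Susceptible. The 4 other effectors and anchors gave 0 calls in either group, with 0 and 2 at an unadjusted p under 0.05. In Susceptible 36.6% of all genes had such a p. In the 6 stress comparisons 0 of 46 passed by edgeR, with 13 at an unadjusted p under 0.05 in D2 Susceptible against Control and 15 in D2 Susceptible against Resilient, beside the 15.7% and 19.1% of all genes given above.

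The remaining cyclases of the list were close to the detection limit. Adcy4, from the same regulatory group as Adcy2, had 0 to 4 counts in each D1 Resilient library and 25 to 141 in each D2 Resilient library (edgeR adjusted p = 0.000230), and at these counts no fold is given. In Susceptible libraries it had 2 to 42 counts in D1 and 0 to 148 in D2 (adjusted p = 0.0918). It was called lower in D1 there by DESeq2 (adjusted p = 0.0492), by voom (adjusted p = 0.000656), without D2 Susceptible replicate 1 (edgeR adjusted p = 0.0252) and with replicates 1 and 2 set aside (edgeR adjusted p = 0.0301). The 5 endothelial markers summed to 12.3 to 34.5 CPM in D1 and 57.5 to 314 CPM in D2 libraries, and the part of endothelial RNA in the Adcy4 difference was not tested. Adcy10, the soluble cyclase, had at most 10 counts in a library and did not pass the filter.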

How the data were processed

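Ribosome-associated RNA from 30 libraries (6 groups of 5, 4 pooled mice each, SMART-Seq v4 from 10 ng of RNA, per the labels' protocols) was read as raw counts per gene, as deposited by the authors. HISAT2, HTSeq and GRCm38 (mm10) are named in the submitters' processing notes. No version is named there. The annotation release is not given in the sources used here, nor is the strand setting. The table of the series equalled the files per library in all 30 columns. Reads not assigned to a gene, 10.1% to 53.3% of a library, were left out.

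Symbols and coordinates came from GENCODE M21 on GRCm38 and promoters from RefSeq. Genes were kept with filterByExpr (minimum count 10, minimum total 15), which left 19368 and set aside 35967. After TMM scaling the quasi-likelihood test of edgeR 4.0.16 (R 4.3.3) was run with robust dispersion, in 1 model of 6 groups, with Benjamini-Hochberg adjustment over all genes tested and a threshold of 0.05. The script was tested on simulated data. SE is the absolute log2 value divided by the square root of F. CPM uses TMM-scaled library sizes, on which 3 counts, the limit for a count of 0, equal 0.0430 to 0.304 CPM. This covers counting error only, as reads without molecular identifiers are not independent molecules. No 2 libraries of a group agreed within sampling noise (chi-square per degree of freedom 13.7 to 2963 over 60 pairs). Shares were tested by exact permutation with scipy 1.17.1, and figures drawn with matplotlib 3.10.9.

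All 8 members were named. From the pathway list the rule took, for each class comparison and direction, up to 5 genes past the threshold of 0.05, smallest adjusted p first, and Adcy4, Adcy10, Drd1 and Adora2a always, and for likeness the 5 nearest genes. The members, lists and alternatives were chosen with earlier results of these data known. Gpr52 of the pathway list was not analysed here, nor were the male and human data that the series mentions. The alternatives tried were the Wald test of DESeq2 1.42.0, DESeq2 size factors within edgeR, no filter, only the groups compared, a block for the replicate number, limma 3.58.1 voom with quality weights, the libraries that stand apart set aside, and each library left out in turn.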

Additional observations from a re-analysis of the deposited data

Results flagged for a closer look

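Among the 48 groups of 5 libraries (8 cyclases in 6 groups), 2 held a library far from the other 4, with a gap to its nearest neighbour over 0.71 of the group's range. Chance alone gives such a library in about 1 in 20 groups. Adcy2 measured 36.8 CPM in D2 Control replicate 5 where the other 4 libraries lay between 22.4 and 25.5 CPM. That library also held the second highest sum of D1 markers among the D2 libraries, 1215 CPM. Adcy8 measured 4.47 CPM in D2 Susceptible replicate 1 where the other 4 lay between 2.08 and 2.41 CPM. That library held the fewest genes with a count of all 30, 15822.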

How the results depend on the processing

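The direction of Adcy2 and Adcy8 between D1 and D2 and their calls in Resilient and Susceptible libraries held in every alternative run: Adcy2 lay between 0.91 and 1.18 in Resilient and between 1.52 and 1.72 in Susceptible. No called difference changed sign. Of 2088 values compared with the main one, 115 had another sign, in 36 of 110 results, all uncalled in both fits. Among these, with D2 Susceptible replicates 1 and 2 set aside, were the differences between the classes in the change of Adcy1 from Control to Susceptible (-0.29, then 0.19) and of Adcy6 (0.30, then -0.05). When only the groups compared were fitted, 2 cyclases (Adcy2 and Adcy8) were called in Susceptible, and 19 pathway genes in Resilient and 11 in Susceptible, with 12.7% and 5.48% of all genes called there in place of 6.65% and 23.9%. Voom gave 23 pathway genes in Resilient, with 17.6% of all genes. DESeq2 called 2 cyclases and 4 pathway genes in D2 Susceptible against Resilient, with 5.05% of all genes. With D1 Susceptible replicate 1 and D2 Susceptible replicates 1 and 2 set aside, the Adcy2 share differed by 2.64 percentage points in Susceptible (exact adjusted p = 0.0571, with fewer libraries to permute). For the others the cause was not tested. Adcy1 in Resilient lost its call with DESeq2 size factors (0.51, adjusted p = 0.0769), without a filter (0.55, adjusted p = 0.0579) and with the replicate block (0.52, adjusted p = 0.0741). Adcy9 in Susceptible lost it with voom (0.41, adjusted p = 0.219).

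Leaving out each library in turn, the cyclases called ranged from 2 to 3 in Resilient, 3 to 5 in Susceptible, 0 to 1 in D2 Susceptible against Control (Adcy2 not counted) and 0 to 3 in D2 Susceptible against Resilient. The pathway genes called ranged from 12 to 14, 16 to 25, 0 to 2 and 0 to 8 in the same comparisons. The cyclase in D2 Susceptible against Control, Adcy6, came without D2 Susceptible replicate 3, as did the 3 in D2 Susceptible against Resilient. The share of all genes called in these fits is not given here, so the counts are not read as a result about the cyclases or the pathway.

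Libraries with the same replicate number were little alike: over 75 such pairs, deviations from the group means correlated between -0.168 and 0.0779. Whether libraries with the same number share a cohort or a preparation was not tested. With the number as a replicate block, 2 cyclases were called in Resilient, 4 in Susceptible and 0 in each stress comparison. The Adcy2 differences were 1.03 and 1.63, and 12 and 21 pathway genes were called. Of all genes, 6.35% were called with this block in Resilient and 21.5% in Susceptible, and at most 10 genes in a stress comparison.

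Depth limits Adcy7, with 0 to 118 counts in a library, and Adcy4. Nothing in the labels says whether libraries of a group share a day of preparation, and p-values measure the spread between pooled libraries.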
